A study of Mus musculus with 12 samples.

Results

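The SLC25 family comprises the carriers that move nucleotides, phosphate, carboxylates, amino acids, acylcarnitines, cofactors, metals and glutathione across the inner mitochondrial membrane, which is otherwise closed to most metabolites. Its members were found by name, as every gene on the array whose RefSeq accession maps to a symbol that starts with Slc25a. There were 47 such genes, read by 56 probes, among 32524 genes on the array, of which 20283 had a RefSeq symbol. In 37 of the 47 the probe stood well above background on all 12 arrays, and these 37 were tested among 16915 genes. The other 10 are given by the number of arrays on which they were above background.

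A carrier of this family is a small protein that binds its substrate on one side of the membrane and releases it on the other, mostly by exchanging one metabolite for another. In hepatocytes the carriers link the cytosol to gluconeogenesis, the urea cycle, fatty acid oxidation, haem synthesis and one-carbon metabolism, all of which run partly inside mitochondria. Serine enters this network because mitochondrial serine is split to glycine and a one-carbon unit carried by folate.

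The livers came from male C57BL/6 mice aged 30 weeks. The LKO mice (Alb+/Cre;Phgdh flox/flox) lacked Phgdh, the enzyme that commits 3-phosphoglycerate to serine synthesis, in hepatocytes, and their Floxed littermates (Phgdh flox/flox) carried the same conditional alleles without Cre. There were 6 mice of each genotype, each on 1 array, with total liver RNA labelled by Cy3. Cre was driven by the albumin promoter, so the other cells of the liver kept Phgdh in both genotypes. The comparison asks whether transcripts of the mitochondrial carriers differ between livers in which Cre deletes Phgdh in hepatocytes and livers without Cre.

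Values are log2 of the array's processed intensity after quantile normalization over the 12 arrays, and a difference is LKO minus Floxed on that scale. The arrays held 21614 to 24252 probes above background, none of them saturated. They lay on 3 slides of 4 arrays each, with Floxed 1 to 4 on slide 1, Floxed 5 and 6 and LKO 1 and 2 on slide 2, and LKO 3 to 6 on slide 3. Genotype and slide therefore cannot be told apart outside slide 2, and the slide 2 difference, 2 arrays against 2 with no test, is given beside the differences described in detail. All 5 hepatocyte markers were above background on every array. Of 5 pancreatic genes, 3 (Cpa1, Pnlip and Prss2) were above background on no array, but 2 were on all 12. Of 4 muscle genes, 2 (Ckm and Myh4) were above background on no array, and 0 were on all 12. Phgdh itself differed by -0.48 (SE 0.18, called, adjusted p = 0.451) and by -0.05 on slide 2, and where its probe lies relative to the deleted exons was not established. In whole liver, fewer cells of a type and less RNA per cell cannot be told apart.

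As a family, the carriers differed little between the genotypes. A gene was called at an unadjusted limma p under 0.05. By this criterion 2 of the 37 tested carriers were called, which is 5.41%, and so were 1413 of all 16915 tested genes, which is 8.35%. Slc25a34 was the only carrier called higher in LKO, against 4.92% of all genes, and Slc25a48 was the only one called lower, against 3.43% of all genes. The smallest adjusted p among the carriers was 0.501, and no tested gene had a limma adjusted p under 0.05 (smallest 0.132; 3 genes by the methods' t-test). In 0.296% of all tested genes the 6 values of one genotype lay entirely above those of the other, and this held for 0 of the 37 carriers.

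The size of the differences can be bounded only for genotype and slide together. The fit held no term for slide, and slides 1 and 3 each held 1 genotype. The median difference of the 37 carriers was 0.02, with 21 higher and 16 lower in LKO, and that of all tested genes was -0.0035. The median size of a difference, without its sign, was 0.07 for the carriers and 0.09 for all genes. For 31 of 37 carriers (83.8%) the 95% interval of the difference lay within a 1.5-fold change in either direction, as it did for 78.2% of all tested genes. For 18 of 37 (48.7%) it lay within a 1.25-fold change, as for 39.7% of all genes. On slide 2 alone the median difference was -0.02 over the carriers, 16 of which were higher in LKO, and 0.02 over all genes. The sign on slide 2 matched that of slide 3 minus slide 1, the other comparison of the genotypes, in 17 of 37 carriers (45.9%) and in 47.4% of all genes.

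**Figure D1:**
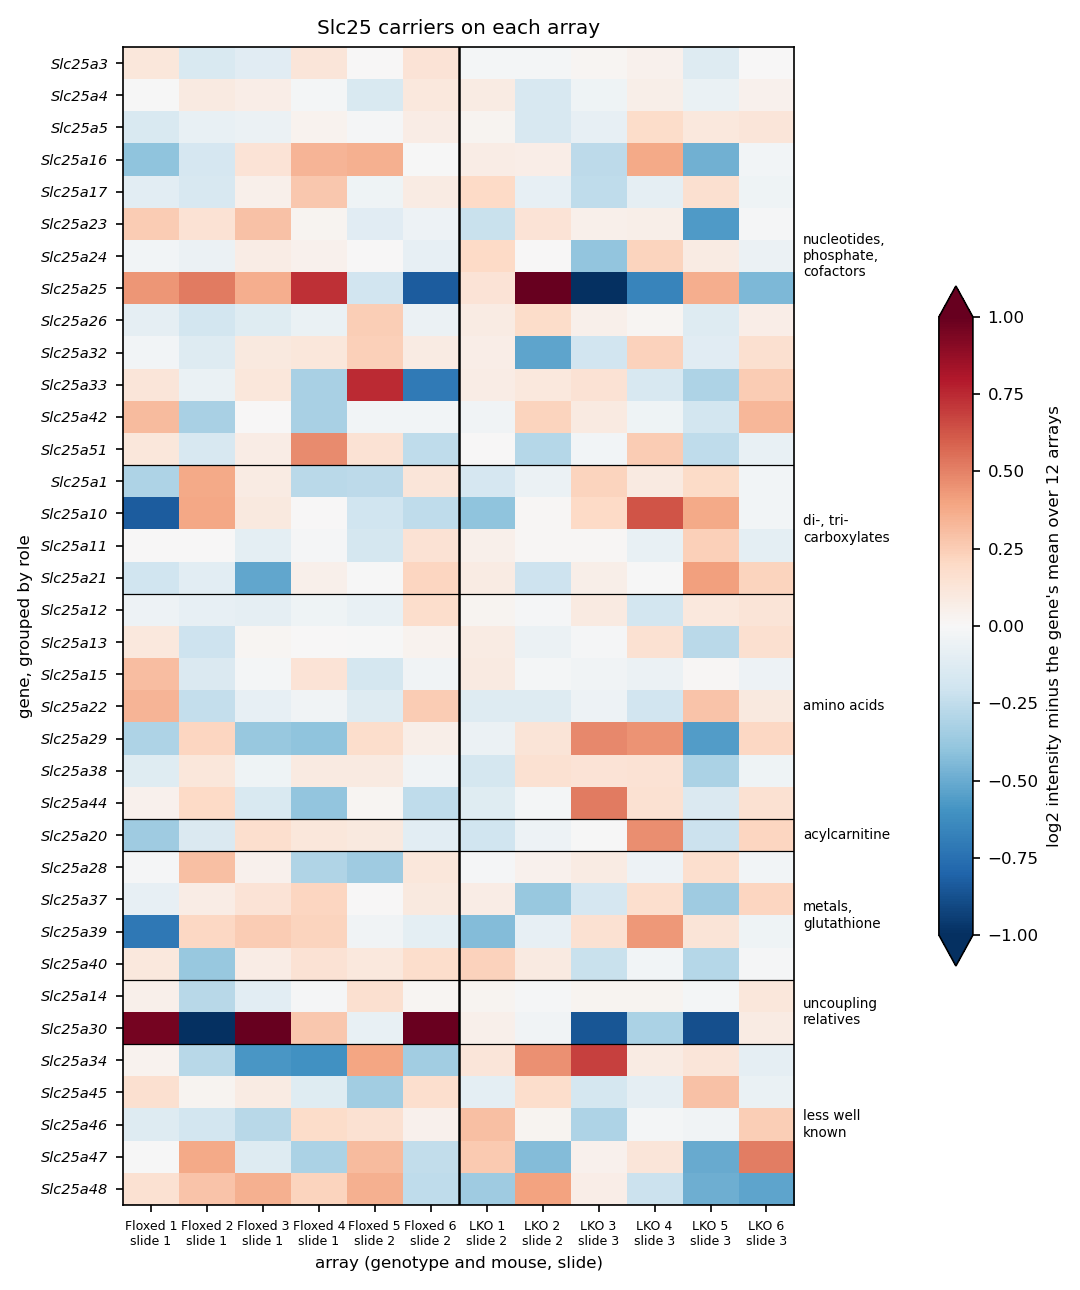
36 of the 37 tested carriers (rows, grouped by what the carrier moves) on each of the 12 arrays (columns, 6 Floxed to the left of the line and 6 LKO to its right, slide written below), as the log2 intensity minus the mean of that gene over the 12 arrays. Most rows are pale on both sides of the line, and Slc25a25 and Slc25a30 vary most from mouse to mouse.

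**Figure D2:**
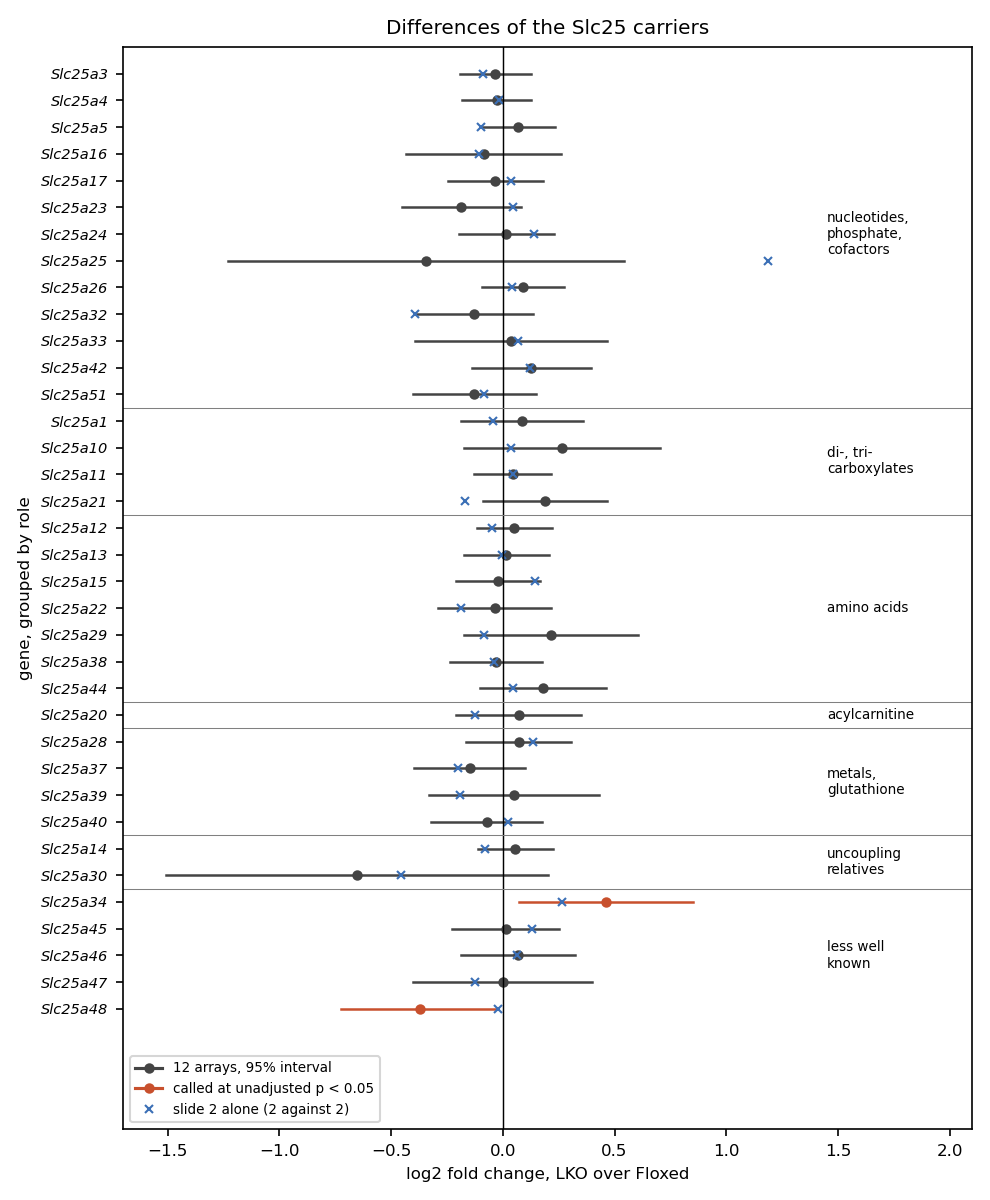
Difference of each of 36 tested carriers, LKO minus Floxed on the log2 scale (points, 6 arrays against 6), with its 95% interval (lines) and the difference on slide 2 alone (crosses, 2 arrays against 2). Only the intervals of Slc25a34 (0.07 to 0.85) and Slc25a48 (-0.72 to -0.02) leave out 0, and the slide 2 value of Slc25a25 (1.19) lies farthest outside the interval of its own gene.

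The differences by array and by carrier are drawn in the heat map and in the plot of the 95% intervals. The median deviation of the carriers on an array ran from -0.08 on Floxed 2 to 0.06 on LKO 4, so that no array carried the family as a whole far up or down. Between 38 and 40 of the 47 carriers were above background on any 1 array.

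The carriers of nucleotides, phosphate and cofactors formed the largest group, with 14 of 17 tested and none called. Of these, 6 were higher and 8 lower in LKO, with a median of -0.03. Slc25a4 and Slc25a5, the ADP/ATP carriers that export the ATP made by oxidative phosphorylation, and Slc25a3, the phosphate carrier that supplies the ATP synthase, varied little between mice. Slc25a4 ranged from 10.72 to 10.98 (median 10.90) in Floxed and from 10.72 to 10.95 (median 10.87) in LKO, and differed by -0.03 (SE 0.07). Its spread between mice of 1 genotype was smaller than that of all but 5.28% of tested genes. Slc25a5 differed by 0.07 (SE 0.08) and Slc25a3 by -0.03 (SE 0.07), with intervals from -0.10 to 0.23 and from -0.19 to 0.12.

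Among the cofactor carriers, Slc25a32, the folate and FAD carrier, sits closest to the one-carbon chemistry that serine feeds. It ranged from 7.26 to 7.64 (median 7.49) in Floxed and from 6.87 to 7.62 (median 7.37) in LKO, with LKO 2 and LKO 3 below every Floxed liver and the other 4 LKO livers inside the Floxed range. The difference was -0.13 (SE 0.12, adjusted p = 0.921), and -0.39 on slide 2. Slc25a26, which imports the methyl donor S-adenosylmethionine, differed by 0.09 (SE 0.08, adjusted p = 0.913). Slc25a42, the coenzyme A carrier, differed by 0.13 (SE 0.12), Slc25a51, the NAD carrier, by -0.13 (SE 0.13), and the peroxisomal carrier Slc25a17 by -0.03 (SE 0.10). Also in the group of nucleotide, phosphate and cofactor carriers, Slc25a16, Slc25a23, Slc25a24 and Slc25a33 lay between -0.19 and 0.04, none of them called.

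All 4 carriers of di- and tricarboxylates were slightly higher in LKO, with a median of 0.14 and none called, and on slide 2 alone 2 were higher and 2 lower. Slc25a1 exports citrate for fatty acid synthesis and differed by 0.08 (SE 0.13). Slc25a11, the oxoglutarate carrier of the malate-aspartate shuttle, differed by 0.04 (SE 0.08, interval -0.13 to 0.21). Slc25a21, the oxodicarboxylate carrier, differed by 0.19 (SE 0.13, adjusted p = 0.827) and by -0.17 on slide 2.

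Slc25a10, which exchanges malate or succinate for phosphate, showed the largest difference of this group. In Floxed livers it ranged from 8.30 to 9.52 (median 9.04) and in LKO livers from 8.73 to 9.77 (median 9.24). The genotypes overlapped, and Floxed 1 was the lowest of the 12 arrays. The difference was 0.27 (SE 0.20, adjusted p = 0.864), 0.03 on slide 2 and 0.13 without Floxed 1.

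Of the amino acid carriers, 7 of 9 were tested, 4 were higher and 3 lower in LKO, and none was called (median 0.02). The aspartate/glutamate carriers Slc25a12 and Slc25a13, which complete the malate-aspartate shuttle and in liver supply aspartate to the urea cycle, differed by 0.05 (SE 0.08) and 0.02 (SE 0.09). Slc25a15, the ornithine carrier of the urea cycle, differed by -0.02 (SE 0.09), and Slc25a22, a glutamate carrier, by -0.04 (SE 0.12). Slc25a38 brings glycine, the product of serine cleavage, into mitochondria for haem synthesis. It ranged from 10.82 to 11.05 (median 10.96) in Floxed and from 10.62 to 11.09 (median 10.99) in LKO, and differed by -0.03 (SE 0.10, interval -0.24 to 0.17).

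Slc25a29, a carrier of basic amino acids, ranged from 6.15 to 6.77 (median 6.43) in Floxed and from 6.00 to 7.04 (median 6.72) in LKO. LKO 5 was the lowest of all 12 arrays while LKO 3 and LKO 4 were the highest. The difference of 0.21 (SE 0.18, adjusted p = 0.890) was -0.08 on slide 2. Of the 12 fits that leave out 1 array, only that without LKO 5 (0.35) gave a call, and the lowest difference was 0.14. Slc25a44, a carrier of branched-chain amino acids, differed by 0.18 (SE 0.13, adjusted p = 0.842), and a second probe of the gene gave -0.12.

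Slc25a20, the carnitine/acylcarnitine carrier through which long-chain fatty acids reach beta-oxidation, ranged from 9.04 to 9.55 (median 9.39) in Floxed and from 9.17 to 9.86 (median 9.36) in LKO. The groups overlapped, with a difference of 0.07 (SE 0.13, interval -0.21 to 0.35).

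The 4 metal and glutathione carriers were all tested and none was called. The mitochondrial iron importers Slc25a28 and Slc25a37 differed by 0.07 (SE 0.11) and -0.15 (SE 0.11, adjusted p = 0.865), and the glutathione carriers Slc25a39 and Slc25a40 by 0.05 (SE 0.18) and -0.07 (SE 0.11). Slc25a37 is highly used in red cell precursors. The 5 tested erythroid markers were all lower in LKO, none called, with a median of -0.33, but all 5 were higher in LKO on slide 2 alone, where Slc25a37 differed by -0.20. Their summed level ran from 14.70 to 15.86 in Floxed and from 14.64 to 15.69 in LKO. Their part in the Slc25a37 value was not tested.

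The less well known carriers held both calls. Slc25a34, whose substrate is not settled, ranged from 7.19 to 8.19 (median 7.48) in Floxed and from 7.71 to 8.48 (median 7.92) in LKO. The LKO livers were higher on the whole, but Floxed 5 lay above 4 of the 6 LKO livers. The mean was 7.57 ± 0.39 (SD, n = 6) in Floxed and 8.03 ± 0.28 (SD, n = 6) in LKO. This is a 1.38-fold higher intensity, or 0.46 (SE 0.18, interval 0.07 to 0.85, limma p = 0.0238, adjusted p = 0.501), with a two-sided exact permutation p of 0.0455. On slide 2 the difference was 0.27, and the call was lost with slide as a fixed block (0.27) and kept with slide as a random block (0.48). The random block used an estimated correlation within slides of -0.07, which makes no allowance for arrays of 1 slide being alike. The call was also lost without Floxed 3 (0.39), Floxed 4 (0.38), LKO 2 (0.41) or LKO 3 (0.37).

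Slc25a48, a carrier linked to choline, was called lower. It ranged from 6.20 to 6.82 (median 6.71) in Floxed and from 5.93 to 6.86 (median 6.18) in LKO. Of the 12 livers the highest was LKO 2, and the lowest Floxed liver, Floxed 6, lay below 3 of the 6 LKO livers. Both are on slide 2. The means were 6.65 ± 0.23 (SD, n = 6) and 6.28 ± 0.36 (SD, n = 6), and the difference was -0.37 (SE 0.16, interval -0.72 to -0.02, limma p = 0.0396, adjusted p = 0.565), with a two-sided exact permutation p of 0.0628. On slide 2 it was -0.02, and the call was lost with a fixed block for slide (-0.02). It was kept with a random block (-0.40), which has the limit given for Slc25a34. The call held in 3 of the 12 fits that leave out 1 array (without Floxed 6, LKO 2 or LKO 3), and the difference ran from -0.49 to -0.30 over the 12.

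The remaining tested carriers of this group were not called. Slc25a47, a carrier found mainly in liver, differed by -0.00077 (SE 0.19), Slc25a45 by 0.01 (SE 0.11), and Slc25a46, an outer membrane member that acts in mitochondrial dynamics, by 0.07 (SE 0.12).

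**Figure D3:**
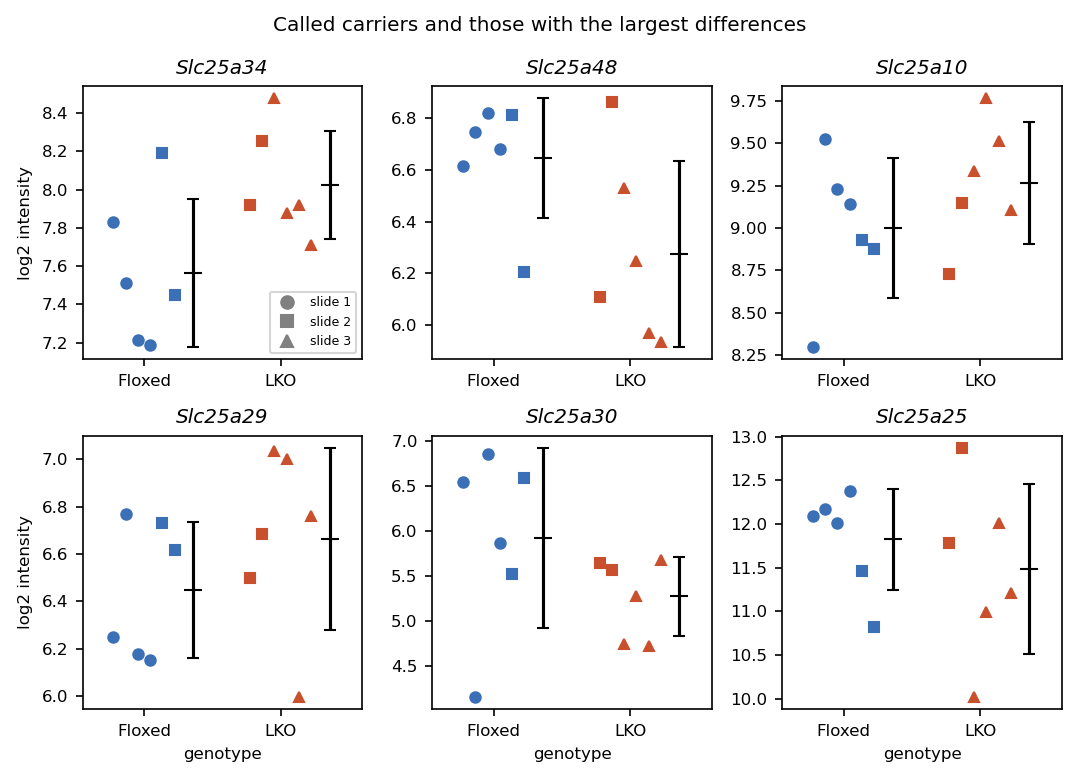
Log2 intensity of 6 carriers in each of the 6 Floxed (blue) and 6 LKO (orange) livers, the 2 called and those with the largest differences, with slide given by the marker shape and the mean ± SD of each genotype as a bar to the right of its points. The genotypes overlap in every panel, and a single low Floxed liver (4.16) is seen for Slc25a30.

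The plot of single livers shows how far Slc25a30, a relative of the uncoupling proteins, varied within Floxed. It ranged from 4.16 to 6.85 (median 6.21) in Floxed and from 4.72 to 5.68 (median 5.42) in LKO. Floxed 2 was the lowest of the 12 livers, although 4 of the other 5 Floxed livers lay above every LKO liver. The difference of -0.65 (SE 0.40, adjusted p = 0.763) was the largest among the 37 tested carriers and was -0.45 on slide 2. Of the 12 fits that leave out 1 array, only that without Floxed 2 gave a call. The difference ran from -1.01 in that fit to -0.47. Slc25a14, a relative of Slc25a30, was steady, with a difference of 0.06 (SE 0.08).

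Slc25a25, a calcium-sensitive carrier that exchanges ATP-Mg for phosphate and so sets the adenine nucleotide pool of the matrix, varied more between mice than any other carrier. It ranged from 10.82 to 12.38 (median 12.06) in Floxed and from 10.02 to 12.87 (median 11.50) in LKO. The highest and the lowest of the 12 livers, LKO 2 and LKO 3, were both LKO and stood 7.18-fold apart. The difference of -0.34 (SE 0.41, adjusted p = 0.949) was far inside this spread, and it moved to -0.05 without LKO 3 and to -0.62 without LKO 2. The slide means were 12.17 for Floxed on slide 1, 11.14 for Floxed on slide 2, 12.33 for LKO on slide 2 and 11.06 for LKO on slide 3. LKO was thus higher by 1.19 on slide 2 and lower by 1.11 on slide 3 than Floxed on slide 1. A fixed block for slide turned the difference to 1.19, which was called, and a random block gave -0.48, which was not.

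**Figure D4:**
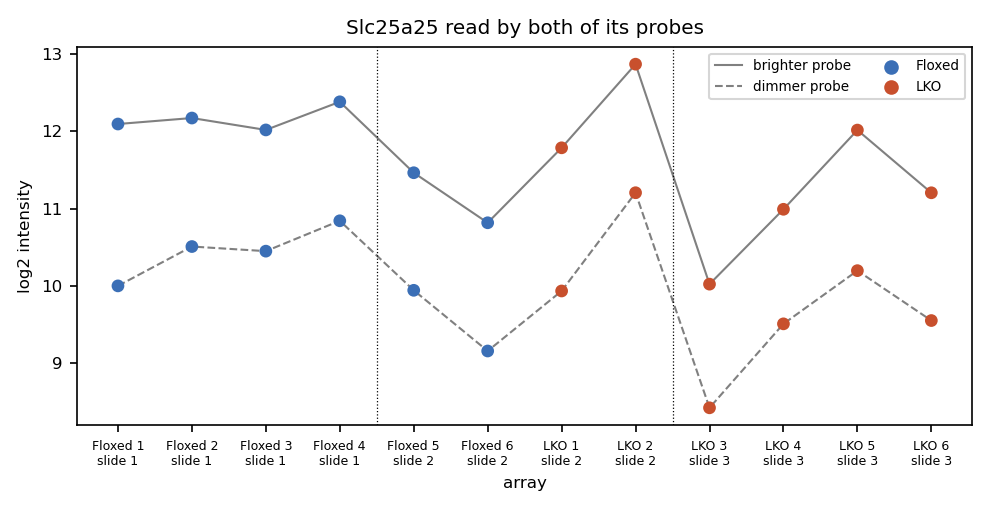
Log2 intensity of Slc25a25 on the 12 arrays, in order of slide (dotted lines separate the slides), read by the brighter (solid line) and the dimmer (dashed line) of its 2 probes, with Floxed in blue and LKO in orange. Both probes have their lowest value on LKO 3 and their highest on LKO 2.

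The spread of Slc25a25 did not rest on a single probe. Over the 12 arrays its probes had a Pearson r of 0.976, given as a description of the same RNA read by both, and their differences between the genotypes were -0.34 and -0.35. On slide 2 the dimmer probe gave 1.02, and between slides 3 and 1 it gave -1.03. Among all tested genes, the spread of Slc25a25 between mice of 1 genotype stood at the 98.9th percentile and that of Slc25a30 at the 98.7th. The median spread of the carriers was 0.21 and that of all tested genes 0.22.

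**Figure D5:**
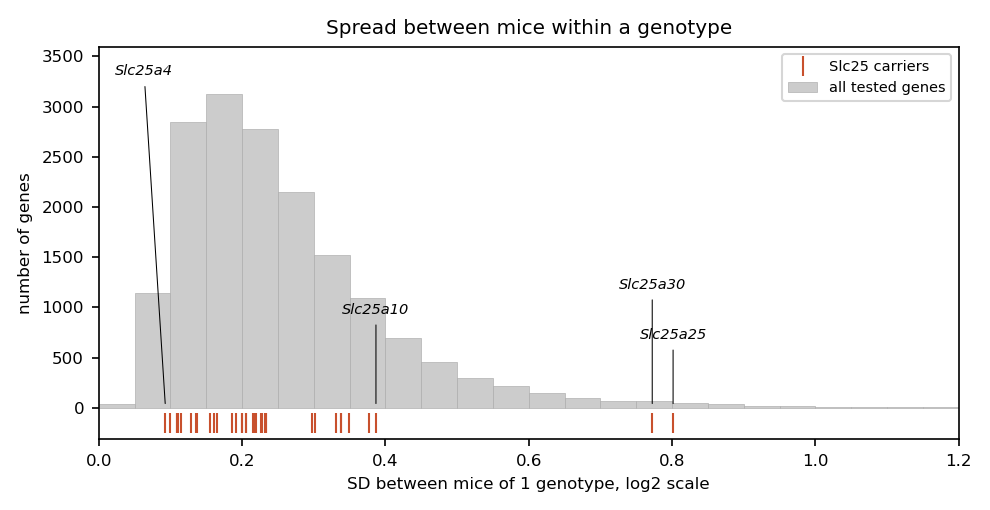
Number of tested genes (grey bars) by the SD between mice of 1 genotype on the log2 scale, with 36 tested carriers as orange ticks below the axis. The carriers lie within the bulk of the genes (median 0.21 against 0.22) except Slc25a25 and Slc25a30, which lie in the upper tail.

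The 250 bases before the transcription start are shown for the 2 called carriers and for the 2 with the widest spread, from RefSeq on GRCm38.p6, 5′ to 3′ on the strand of the gene. RefSeq windows of 300 bases (250 before the start and 50 after it) were matched for 36 of the 47 carriers. Slc25a25 has 3 windows, and the 1 shown was picked because it holds the cAMP response element. Capitals mark every match to 4 motifs, searched on both strands, with a match on the other strand shown as the complement reads here. The cAMP response element was searched as TGACGTCA. The E-box was searched as CACGTG. The core of nuclear receptor sites was searched as AGGTCA. The CCAAT box was searched by those 5 letters, and no match overlapped another in the windows shown.
Slc25a34, chr4:141623835-141624084, minus strand: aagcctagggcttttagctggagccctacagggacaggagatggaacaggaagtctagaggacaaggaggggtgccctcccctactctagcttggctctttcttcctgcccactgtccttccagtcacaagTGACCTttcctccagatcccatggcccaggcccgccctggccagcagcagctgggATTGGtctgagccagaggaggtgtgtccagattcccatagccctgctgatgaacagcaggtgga
Slc25a48, chr13:56438105-56438354, plus strand: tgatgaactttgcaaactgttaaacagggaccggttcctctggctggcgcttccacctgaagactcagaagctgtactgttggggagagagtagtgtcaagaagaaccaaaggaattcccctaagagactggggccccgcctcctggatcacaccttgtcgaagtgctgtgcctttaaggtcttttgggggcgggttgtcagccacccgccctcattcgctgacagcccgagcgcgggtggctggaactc
Slc25a25, chr2:32424067-32424316, minus strand: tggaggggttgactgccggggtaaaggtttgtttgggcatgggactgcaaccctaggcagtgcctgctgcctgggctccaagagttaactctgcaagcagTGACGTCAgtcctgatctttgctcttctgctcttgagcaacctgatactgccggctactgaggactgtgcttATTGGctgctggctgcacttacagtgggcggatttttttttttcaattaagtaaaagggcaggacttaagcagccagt
Slc25a30, chr14:75787038-75787287, minus strand: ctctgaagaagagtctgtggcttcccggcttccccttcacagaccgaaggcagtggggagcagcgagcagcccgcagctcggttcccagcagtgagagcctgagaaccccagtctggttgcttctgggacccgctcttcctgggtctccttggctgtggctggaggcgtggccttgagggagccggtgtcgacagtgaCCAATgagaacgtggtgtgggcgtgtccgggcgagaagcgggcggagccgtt

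The cAMP response element, the site at which CREB binds, lay 150 bases before the start in the window of Slc25a25 picked for holding it. It was found for 2 of 36 carriers (5.56%, the other being Slc25a36) and for 2.03% of 27025 genes with a window. The nuclear receptor motif of Slc25a34 lay 119 bases before its start, and AGGTCA was found for 4 carriers (11.1%) and for 18.1% of genes. CACGTG was found for 7 carriers (19.4%) and for 8.09% of genes, and CCAAT for 19 (52.8%) and 41.1%. The window of Slc25a48, called lower, held none of the 4. These matches describe the letters of the windows only.

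For 10 carriers the probe was not above background on all arrays. Slc25a2, Slc25a31, Slc25a41, Slc25a43, Slc25a53 and Slc25a54 were above background on no array (log2 intensity 0.93 to 2.98). Slc25a27 was above background on 2 LKO arrays and no Floxed array, Slc25a36 on 3 Floxed and 2 LKO arrays, and Slc25a35 on 6 Floxed and 5 LKO arrays.

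Slc25a18, a glutamate carrier, was above background on 5 of 6 Floxed arrays and on 1 of 6 LKO arrays. It ranged from 2.99 to 4.12 (median 3.49) in Floxed and from 1.96 to 3.59 (median 2.51) in LKO, and 1 LKO liver, LKO 2, lay within the Floxed range with the other 5 below it. When genes above background on at least 6 arrays were also fitted (19030 genes), it differed by -0.94 (SE 0.27). On slide 2 the difference was -0.08. A gene this near background passes that filter mainly through the genotype in which it is brighter, so its difference is a description, given without a p-value. Slc25a35 gave -0.10 (adjusted p = 0.969) in the same fit.

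A second probe above background on all arrays was available for 7 tested carriers. Both probes gave the same sign for Slc25a25, Slc25a26 (0.09 and 0.12), Slc25a37 (-0.15 and -0.01) and Slc25a51 (-0.13 and -0.11). They gave opposite signs for Slc25a3 (-0.03 and 0.05), Slc25a33 (0.04 and -0.10) and Slc25a44 (0.18 and -0.12), all small values. A shared sign did not mean that the probes varied together over the 12 arrays. Apart from Slc25a25, their Pearson r was 0.05 for Slc25a26, 0.25 for Slc25a37 and 0.60 for Slc25a51. It was 0.31 for Slc25a3, 0.74 for Slc25a33 and 0.08 for Slc25a44. Among carriers that lie next to each other in the genome with no other protein-coding gene between them (RefSeq, GRCm38.p6), Slc25a29 and Slc25a47 were both tested and differed by 0.21 and -0.00077. In the other adjacent pairs, Slc25a41 with Slc25a23, Slc25a54 with Slc25a24 and Slc25a43 with Slc25a5, 1 carrier of each pair was above background on no array.

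The proteins around the carriers were read in the same fit. Of the relatives that bear other names, the uncoupling proteins and Mtch1 and Mtch2, 4 of 5 were tested and none was called (median 0.05). Of 27 other transporters of the mitochondrial membranes, 23 were tested, 18 of them higher and 5 lower in LKO (median 0.04; 14 and 9 on slide 2 alone), and 1 was called. Of all tested genes 48.8% were higher and 8.35% called. This was Sfxn1, which imports serine into mitochondria. It ranged from 11.58 to 12.06 (median 11.79) in Floxed and from 11.88 to 12.14 (median 12.06) in LKO, so the LKO values lay in the upper part of the Floxed range and just above it. The difference was 0.21 (SE 0.09, limma p = 0.0432, adjusted p = 0.579; two-sided exact permutation p = 0.0390) and 0.19 on slide 2. The call held without Floxed 4, Floxed 5 or LKO 3 and was lost without any one of the other 9 arrays.

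The machinery that inserts the carriers into the inner membrane gave 13 genes on the array, all of them tested, 6 higher and 7 lower, none called. Timm22, the core of the carrier translocase, differed by 0.0018 (SE 0.09), and Tomm70a, the receptor for carriers at the outer membrane, by 0.05 (SE 0.13). Of 15 enzymes that make or use the carried metabolites, 12 were higher and 3 lower in LKO, with a median of 0.06 and none called, and on slide 2 alone 6 were higher and 9 lower. Among them Alas1, which uses glycine to start haem synthesis, differed by -0.62 (SE 0.45, adjusted p = 0.843; -0.98 on slide 2), Acly, which splits exported citrate, by 0.48 (SE 0.37, adjusted p = 0.865; -0.44 on slide 2), and Shmt2, which cleaves serine in mitochondria, by 0.0033 (SE 0.09).

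Of the marker lists for other liver cells, 4 macrophage, 5 endothelial, 5 stellate, 2 bile duct, 5 erythroid and 3 lymphocyte genes were tested. The only one called was Pecam1, an endothelial gene (0.70, SE 0.18, adjusted p = 0.273, and 0.04 on slide 2). For comparison, 8.35% of all tested genes were called. Of the 5 endothelial markers 4 were higher in LKO, and their summed level ran from 13.84 to 14.09 in Floxed and from 13.83 to 14.46 in LKO. Their part in the carrier values was not tested.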

How the data were processed

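Liver RNA of 6 Floxed and 6 LKO mice was read on 12 single-colour Agilent arrays (4 per slide). The deposited scanner files hold, for each of 43020 spots, a background-subtracted processed intensity made by the authors with Agilent Feature Extraction (9.5.1.1 per the labels, 10.7.1.1 per the file headers). The authors' deposited table of quantile-normalized intensities was used, after taking log2, as an alternative. The study's filter on detection p-values could not be applied to these columns, and the scanner's well-above-background flag took its place. With R 4.3.3 and limma 3.58.1, 1377 control spots were left out, outlier spots (0.298%) were set missing, log2 intensities were quantile normalized and spots were averaged per probe. Probes above background on all 12 arrays were kept (20404 of 39429), and the brightest probe stood for its gene. RefSeq accessions gave a symbol for 94.3% of 28389 RefSeq probes.

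Genotypes were compared with lmFit and eBayes without covariates, calls were made at the unadjusted p of the study's criterion, p-values were adjusted by Benjamini-Hochberg over all 16915 tested genes, and the code was tested on simulated data. Single values were tested by exact permutation (924 arrangements, smallest p 0.00216). The carriers, role groups and lists were chosen with earlier results of these data known. Described in full were the called carriers and the 3 extreme differences in each direction. Alternatives were the scaling, background correction, filter, probe summary, test, threshold, slide and replicate number as blocks, and leaving out each array. The number of arrays limits the precision. 1 tested carrier and 1 marker gene are counted but not reported by name here.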

Additional observations from a re-analysis of the deposited data

Results flagged for a closer look

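In 7 of 74 groups of 6 livers (37 tested carriers in each genotype) 1 liver stood apart from the other 5 by Dixon's criterion, and chance alone gives about 1 in 20, or 3.7 groups. Slc25a39 (glutathione carrier) was 8.52 in Floxed 1, and the other Floxed livers lay between 9.13 and 9.49. Slc25a40 (glutathione carrier) was 5.36 in Floxed 2 and 5.82 to 5.92 in the others. Slc25a13 (aspartate/glutamate carrier) was 12.26 in Floxed 2, below 12.47 to 12.58 in the others. Slc25a26 (S-adenosylmethionine carrier) was 8.62 in Floxed 5, above 8.19 to 8.31. Slc25a12 (aspartate/glutamate carrier) was 9.04 in Floxed 6, above 8.77 to 8.82. Slc25a48, called lower in LKO, was 6.20 in Floxed 6 and 6.62 to 6.82 in the other Floxed livers. Slc25a14 was 8.31 in LKO 6, above 8.18 to 8.23. Of these, 6 are Floxed livers and 1 is an LKO liver, and Floxed 2 and Floxed 6 each appear for 2 carriers.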

How the results depend on the processing

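With 1413 genes and 2 carriers called, the number of genes called was 2791 with no filter on dim probes, 91 at an absolute log2 difference of at least 1, 317 with slide as a fixed block, 0 at an adjusted p under 0.05 and 3 by the methods' t-test after adjustment, and ran from 1103 to 1837 when each array was left out. Scaling each array to its 75th percentile gave 1127 genes higher and 316 lower (78.1% higher), against 832 and 581 (58.9%). Carriers called numbered 1 (Slc25a34) under that scaling, with normexp and by the methods' t-test, 1 with slide as a fixed block (Slc25a25), 0 at an adjusted p under 0.05, 0 by the adjusted t-test, 0 at an absolute difference of at least 1, and 0 to 2 when each array was left out. With slide as a fixed block the difference of Slc25a25 was 1.19 and that of Slc25a29 -0.082, both reversed, which compares 2 arrays with 2. Slc25a48 was not called under the 75th percentile scaling (-0.31), with normexp (-0.17) or by the methods' t-test (-0.37). Among the other mitochondrial transporters, 0 were called with the mean of a gene's probes, 0 at an adjusted p under 0.05, 0 by the adjusted t-test, 0 at an absolute difference of at least 1, 0 with slide as a fixed block, 2 (Cpt1a, Sfxn1) with 1 result per probe, and 0 to 2 when each array was left out. The median of the carriers stayed between -0.02 and 0.03 in all 28 alternatives. Those that change only the test, the threshold or the replicate block cannot move it, and slide 2 alone repeats the fixed block for slide. The causes were not tested.

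Same-numbered mice have neighbouring animal numbers in the labels, which do not say that a number marks a litter, so the pairing is not settled and the reported values have no block. Deviations of same-numbered arrays correlated from -0.24 to 0.32, over 0.1 in 3 of 6 pairs, and 3 of 12 arrays correlated best with their own number. A replicate block gave 1426 genes (718 higher, 708 lower, 50.4% higher) and 2 carriers, and slide as a random block 1925 genes and 2 carriers. The correlation within slides used for the random block was -0.07, so that fit did not adjust for likeness within a slide.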
